A study of Mus musculus with 16 samples.

Results

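The genes described here are 5 members of the CCN family (Ccn1, Ccn2, Ccn3, Ccn4 and Ccn5), the YAP-TAZ target genes Ankrd1 and Amotl2, and the genes of the co-activators themselves, Yap1 and Wwtr1, the latter of which encodes TAZ. They were chosen by name, 9 of the 54453 genes in the table, and matched by symbol to the gene identifiers of the deposited values. Ccn3 and Ankrd1 were named because their values vary between the MEF-2 clonal lines, so that their spread there, and anything computed from it, is given as a description.

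Total RNA was sequenced from 16 lines of immortalised mouse embryonic fibroblasts (MEFs), with 1 library per line. The cells came from C57BL/6J embryos (E13.5) and had been immortalised by passaging through crisis, and the labels give no transgene and no treatment. The MEF-1 and MEF-2 parental lines come from 1 embryo each, and 7 clonal lines of each parental line were grown from single sorted cells. The authors report that MEF-1 came from a male and MEF-2 from a female embryo. The design sets clonal lines of one origin against each other, against their parental line, and against the clonal lines of the other origin. Embryo, its sex and origin cannot be told apart in any difference between MEF-1 and MEF-2.

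CCN proteins are secreted matricellular proteins that bind integrins, syndecans and other receptors at the cell surface. YAP and TAZ are transcriptional co-activators that bind DNA through TEAD factors, and the kinases of the Hippo pathway, LATS1 and LATS2, phosphorylate them and keep them out of the nucleus. Ccn1, Ccn2, Ankrd1 and Amotl2 are widely used as readouts of YAP-TAZ activity in fibroblasts, where cell density, attachment and tension of the actin cytoskeleton act on the pathway. All lines were harvested at one stated confluency, and the density that each line had reached is not given in the sources used here.

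TEAD factors recognise a core of 6 bases, GGAATG on one strand and CATTCC on the other. In the 250 bases before each start site, taken from RefSeq (GRCm38.p6), 12.6% of 32851 promoters hold this core on either strand. A promoter was at hand for 5 of the 9 genes, namely Ccn1, Amotl2, Ankrd1, Yap1 and Wwtr1, and all 5 hold it. The stretches are shown because the genes were chosen around one DNA-binding partner. They run 5′ to 3′ on the strand of the gene with the core in capitals, and a match is a description of letters and not of binding.

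Ccn1, chr3:145650071-145650100, minus strand, core from 103 bases before the start: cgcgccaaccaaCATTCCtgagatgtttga

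Amotl2, chr9:102717727-102717756, plus strand, core from 65 bases before the start: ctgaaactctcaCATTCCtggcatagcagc

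Ankrd1, distal match, chr19:36120037-36120066, minus strand, core from 210 bases before the start: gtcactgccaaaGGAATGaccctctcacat

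Ankrd1, proximal match, chr19:36119950-36119979, minus strand, core from 123 bases before the start: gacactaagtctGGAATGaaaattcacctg

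Yap1, chr9:8004720-8004749, minus strand, core from 141 bases before the start: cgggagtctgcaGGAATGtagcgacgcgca

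Wwtr1, chr3:57576029-57576058, minus strand, core from 136 bases before one start and 170 bases before another: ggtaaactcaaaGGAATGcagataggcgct

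Ankrd1 was the only gene of these 5 with 2 matches. The stretches of Ankrd1 and Amotl2 lie within first exons of longer transcripts in the GENCODE annotation (release 21, mm10), and those of Ccn1, Yap1 and Wwtr1 lie upstream of all annotated exons of their genes.

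The values are regularised logarithms (rlog), the log2 of counts divided by the size factor of the library, with each line drawn towards the average of the gene. They hold no counts, so that the depth behind a value is unknown. The average over 16 lines lay above 3.75, the 40th percentile of protein-coding genes, for 10 of 10 fibroblast markers. Thy1 passed at 4.74, with lines from 2.72 to 10.22. In the MEF-1 clonal lines it lay below this limit (2.95 ± 0.23, SD, n = 7). Passing this limit does not single out fibroblasts. Of the markers of other cells, 5 of 5 for smooth muscle, 4 of 4 for chondrocytes and 3 of 4 for Schwann and neural cells lay above this limit, against 1 of 5 for epithelium, 1 of 4 for endothelium, 1 of 4 for blood cells and 0 of 7 for striated muscle. The summed smooth-muscle markers lay, on the log2 scale, between 17.09 and 18.22 for the clones of MEF-1 and between 18.10 and 19.34 for those of MEF-2. The summed Schwann and neural markers separated the sets, at 9.73 to 10.88 in MEF-1 and 11.71 to 12.98 in MEF-2. Of the fibroblast markers, Dcn (−4.74), Lum (−3.68) and Pdgfra (−1.85) were lower and Thy1 (2.59) was higher in MEF-2, as differences of the clonal means on the log2 scale. The part of these in the differences between MEF-1 and MEF-2 given here was not tested. No line had the values of another (0 identical pairs).

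**Figure D1:**
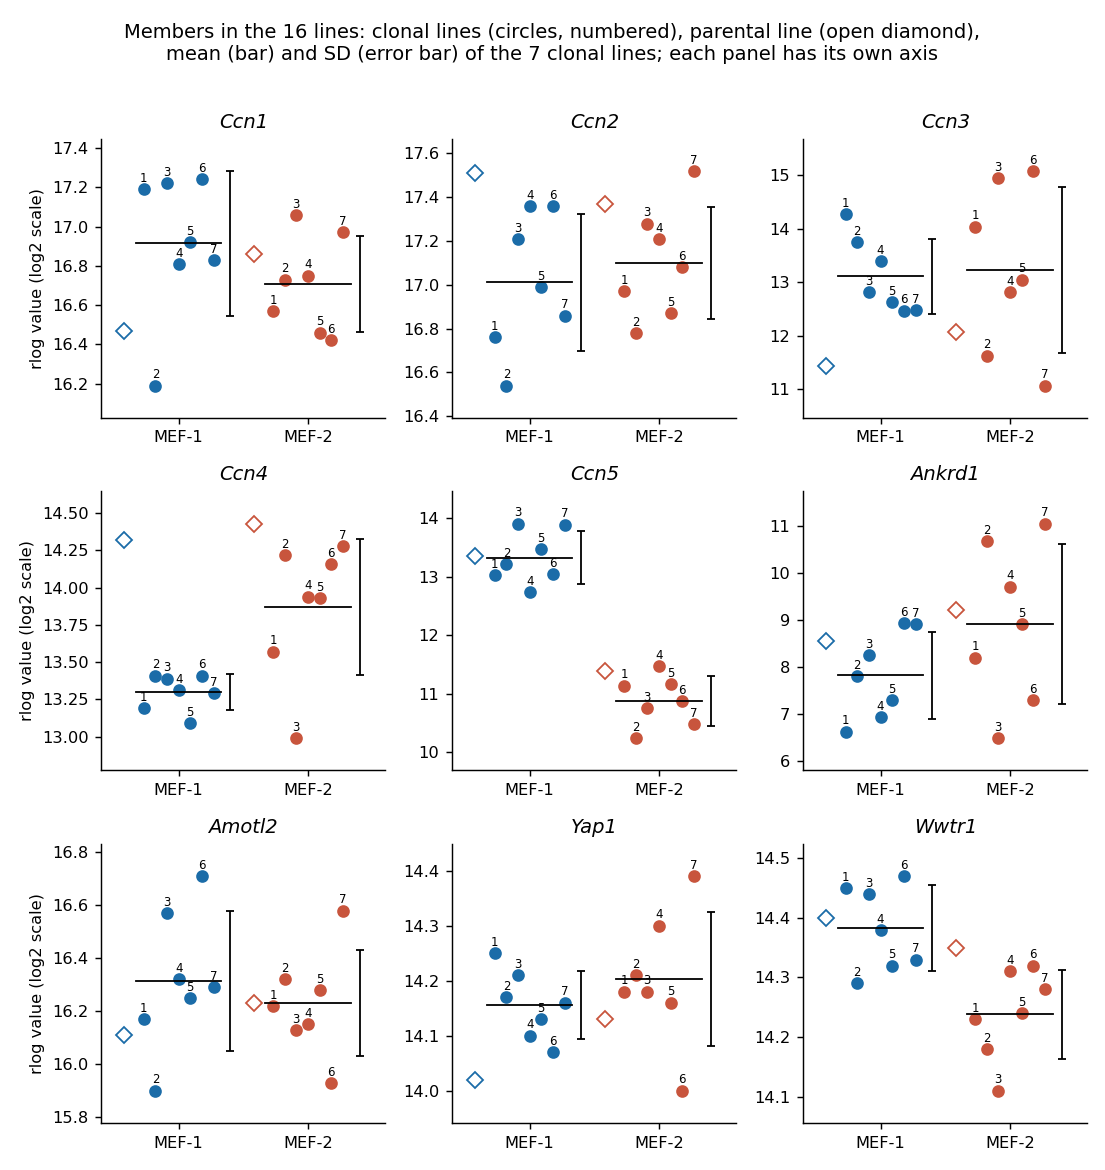
The rlog values (log2 scale, vertical axis, a separate range in each panel) of the 9 genes are plotted for the 7 numbered clonal lines and the parental line (open diamond) of MEF-1 and MEF-2, with the mean and SD of the clonal lines. Ccn5 is the only gene in which MEF-1 clones and MEF-2 clones do not overlap, and Ccn3 and Ankrd1 cover the widest ranges among the MEF-2 lines.

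All 9 genes passed the filter for testing (protein-coding with an average above 0, 15285 genes). Per length of exon, with the log2 of the exonic kilobases taken from the rlog average over 16 lines, Ccn1 (15.78) and Ccn2 (15.59) stood highest and Amotl2 followed at 13.61. Wwtr1 (12.06), Ccn3 (11.48), Ccn4 (11.21), Ccn5 (11.19) and Yap1 (10.96) lay close together, and Ankrd1 was lowest at 6.90. The order of Ccn1 and Ccn2 changed between lines, and so did that of Ccn3, Ccn4 and Ccn5, whose clonal lines overlapped on this scale in MEF-1 or in MEF-2. Ccn6, the remaining gene of the family (ENSMUSG00000062074), was listed at exactly 0 in every line.

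The secreted activators of the family, Ccn1 and Ccn2, were high in every line and differed little between MEF-1 and MEF-2. Ccn1 (ENSMUSG00000028195, minus strand of chromosome 3 from 145646976 to 145649981, mm10), formerly Cyr61, encodes a matricellular protein that promotes adhesion and migration through integrins. Its rlog value had a lowest, median and highest of 16.19, 16.92 and 17.24 among MEF-1 clones and of 16.42, 16.73 and 17.06 among MEF-2 clones. The lowest of all was MEF-1 line 2, and the remaining MEF-1 lines, from 16.81 upwards, overlapped with the upper MEF-2 lines. The means were 16.91 ± 0.37 and 16.71 ± 0.25 (SD, n = 7 each), a difference (MEF-2 minus MEF-1) of −0.20 with a 95% interval from −0.54 to 0.13 (limma, adjusted p = 0.287). Without MEF-1 line 2 the difference was −0.33 and passed the test (limma, adjusted p = 0.0387), so that the call on Ccn1 rests on this 1 line.

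Ccn2 (ENSMUSG00000019997, plus strand of chromosome 10 from 24595442 to 24598683), formerly Ctgf, encodes connective tissue growth factor, which promotes matrix production in fibroblasts. Its values went from 16.54 over a median of 16.99 to 17.36 among MEF-1 clones, and from 16.78 over 17.08 to 17.52 among MEF-2 clones. MEF-2 line 7 was the highest and MEF-1 line 2 the lowest clonal line, and the ranges overlapped over most of their length. The difference was 0.09, with a 95% interval from −0.22 to 0.41 (limma, adjusted p = 0.612).

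Ccn5 separated the sets, and Ccn4 was shifted the opposite way. Ccn5 (ENSMUSG00000027656, plus strand of chromosome 2 from 163820861 to 163833146), formerly Wisp2, encodes a CCN protein without the C-terminal cystine-knot domain of the other members. It had a lowest, median and highest value of 12.74, 13.22 and 13.91 among MEF-1 clones, against 10.24, 10.87 and 11.47 among MEF-2 clones. All MEF-1 lines stood above all MEF-2 lines, and the parental lines, at 13.35 and 11.38, lay on the side of their own clones. The difference was −2.46 ± 0.21 (SE), with a 95% interval from −2.91 to −2.0 (limma, adjusted p = 2.15e-07). Of all genes tested, 25.9% had sets without overlap, and Ccn5 was 1 of 7 tested members. The median of the genes of chromosome 2 was low in MEF-2 line 3 (−0.25 against the mean of the clonal lines), and with chromosome medians taken away, as in every other alternative fit, the call on Ccn5 remained.

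Ccn4 (ENSMUSG00000005124, plus strand of chromosome 15 from 66891320 to 66923201), formerly Wisp1, encodes a target of Wnt signalling. Its lowest, median and highest values were 13.09, 13.31 and 13.41 among MEF-1 clones, against 12.99, 13.94 and 14.28 among MEF-2 clones. The MEF-1 lines lay within a range of 0.32, while 6 of the 7 MEF-2 lines stood above all of them and MEF-2 line 3 stood below. The difference was 0.57 ± 0.16 (SE), with a 95% interval from 0.22 to 0.92 (limma, adjusted p = 0.00784).

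Of the co-activators, Wwtr1 was slightly lower in the MEF-2 clonal lines, and Yap1 did not pass the test. Wwtr1 (ENSMUSG00000027803, minus strand of chromosome 3 from 57455649 to 57575910) went from 14.29 over a median of 14.38 to 14.47 among MEF-1 clones, and from 14.11 over 14.24 to 14.32 among MEF-2 clones. The sets overlapped between 14.29 and 14.32, and the difference was −0.14 ± 0.045 (SE; limma, adjusted p = 0.0129). Yap1 (ENSMUSG00000053110, minus strand of chromosome 9 from 7931999 to 8004596) ran from 14.07 over 14.16 to 14.25 and from 14.00 over 14.18 to 14.39. The lowest and the highest Yap1 values both belonged to MEF-2 lines, line 6 and line 7, and the difference was 0.05 with a 95% interval from −0.07 to 0.16 (limma, adjusted p = 0.47).

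Amotl2 (ENSMUSG00000032531, plus strand of chromosome 9 from 102716672 to 102733418) encodes angiomotin-like 2, which binds YAP and is itself a target gene. It went from 15.90 over a median of 16.29 to 16.71 among MEF-1 clones, and from 15.93 over 16.22 to 16.58 among MEF-2 clones. The sets covered nearly the same values, with a difference of −0.09 and a 95% interval from −0.34 to 0.17 (limma, adjusted p = 0.563).

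Altogether 3 of the 7 tested members passed the test, Ccn4 upwards and Ccn5 and Wwtr1 downwards in MEF-2. Of all 15285 genes 56.1% passed it (27.5% higher and 28.6% lower in MEF-2), so that a share of this size is near the background.

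**Figure D2:**
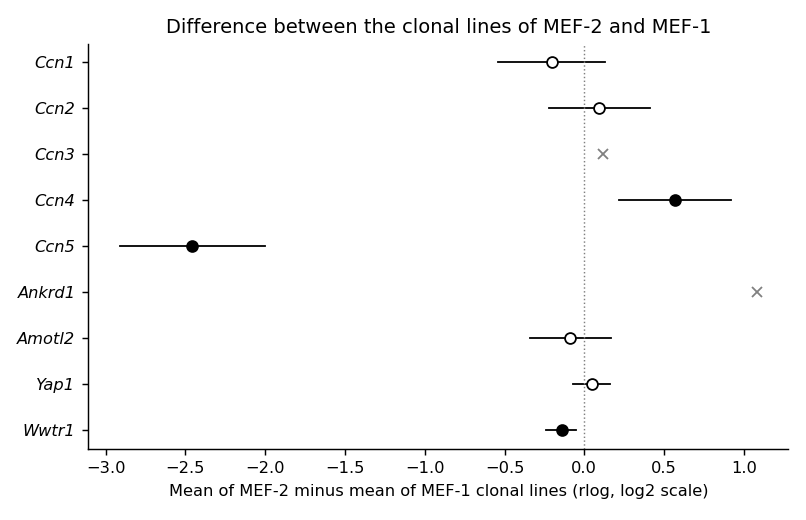
The difference between the mean rlog values of 7 MEF-2 and 7 MEF-1 clonal lines (horizontal axis, log2 scale) is plotted for each gene with its 95% interval, filled where the adjusted p was under 0.05, and as a cross without interval for Ccn3 and Ankrd1, which were not tested. Ccn5 lies at −2.46, far from the other genes, and the intervals of Ccn1, Ccn2, Amotl2 and Yap1 include 0.

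Ccn3 and Ankrd1 varied most between clonal lines, and they did so in opposite directions. Ccn3 (ENSMUSG00000037362, plus strand of chromosome 15 from 54745702 to 54754039), formerly Nov, encodes a CCN protein that in several cell types opposes the growth-promoting members. In the MEF-2 clonal lines 1 to 7 its rlog value was 14.04, 11.63, 14.94, 12.82, 13.05, 15.08 and 11.07, and in the MEF-1 lines 14.27, 13.75, 12.81, 13.39, 12.63, 12.47 and 12.48. MEF-2 lines 3 and 6 stood above and lines 2 and 7 below all 7 MEF-1 lines.

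Ankrd1 (ENSMUSG00000024803, minus strand of chromosome 19 from 36111961 to 36120099) encodes a nuclear and sarcomeric ankyrin-repeat protein that is also known from stretched muscle. In the MEF-2 clonal lines 1 to 7 its rlog value was 8.20, 10.68, 6.49, 9.71, 8.92, 7.29 and 11.05, and in the MEF-1 lines 6.63, 7.80, 8.25, 6.93, 7.30, 8.94 and 8.91. The MEF-2 lines that were highest for Ankrd1, lines 7 and 2, were those lowest for Ccn3, and lines 3 and 6 were the reverse. The 7 striated-muscle markers all had averages of 3.44 or lower.

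The means of Ccn3 were 13.11 ± 0.70 and 13.23 ± 1.55 (SD, n = 7 each) in MEF-1 and MEF-2, and those of Ankrd1 were 7.82 ± 0.92 and 8.91 ± 1.70. These differences of 0.12 and 1.08 are given without a test. When 1 line was left out, that of Ccn3 ran from −0.19 to 0.48 and was below 0 without MEF-2 line 1, 3 or 6, and that of Ankrd1 ran from 0.72 to 1.48. Ankrd1 lies on chromosome 19, whose median lay between 0.15 and 0.21 for MEF-1 clones and between −0.23 and −0.17 for MEF-2 clones, a shift opposite to that of the gene. With chromosome medians taken away the difference of Ankrd1 was 1.46.

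Among 13123 genes above the 40th percentile, the range from the lowest to the highest clonal line had a median of 0.52 in MEF-1 and 0.43 in MEF-2. Ankrd1 covered 4.56 in the MEF-2 lines, more than 99.8% of these genes, and Ccn3 covered 4.01, more than 99.7%, which are the values they were chosen for. In the MEF-1 lines, which the choice did not use, Ankrd1 covered 2.31 (above 96.8% of genes) and Ccn3 1.80 (above 93.0%). A range of at least 4 was reached by 46 genes in MEF-2 and by 61 in MEF-1.

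At the other end, Wwtr1 covered 0.17 in MEF-1 and 0.21 in MEF-2, above 2.83% and 14.6% of genes, and Yap1 covered 0.18 and 0.39, above 3.06% and 46.0%. The transcripts of the co-activators were therefore among the steadier ones in MEF-1. Ccn4 covered 0.32 in MEF-1 (above 21.6% of genes) and 1.29 in MEF-2 (above 88.4%). Ccn5 covered 1.18 and 1.22, Ccn1 1.05 and 0.64, Ccn2 0.81 and 0.74, and Amotl2 0.81 and 0.65. A test of absolute deviations from the median of the set called 0 of the 7 tested members and 2 of all genes (0.0131%, limma, with 1329 at an unadjusted p under 0.05). With deviations taken from the mean of the set it called 450 genes, so that its count depends on that choice, and in a check on simulated data it had little power with 7 lines per set. Its count of 0 therefore says nothing on these members, and the spread of Ccn4 is given by its ranges alone.

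Within the 7 MEF-2 clonal lines Ccn3 and Ankrd1 had a Pearson's r of −0.980 and a Spearman's rho of −0.964. Both genes were named for their values in these lines, so that the relation there is a description and is given without a test. Without the 2 lines farthest from the median of Ccn3 r was −0.982, and leaving out any 1 line kept it between −0.991 and −0.973. In the 7 MEF-1 lines, which the choice did not use, r was −0.752 (exact permutation test, two-sided, p = 0.0633, adjusted p = 0.414) and rho −0.821 (exact permutation p = 0.0341, adjusted p = 0.351). The p-values were adjusted over 72 relations, 36 pairs of genes in each of 2 sets. The direction was the same in MEF-1, where the test after adjustment was not passed. In MEF-1 r was −0.783 without the 2 farthest lines and ran from −0.897 to −0.598 when 1 line was left out.

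**Figure D3:**
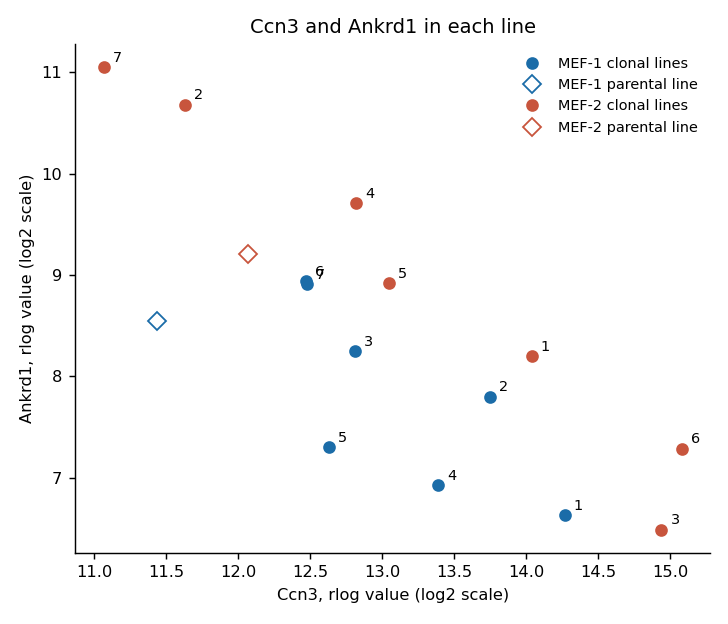
Each point is 1 line, with the rlog value of Ccn3 on the horizontal and of Ankrd1 on the vertical axis (log2 scale), clonal lines as numbered circles and parental lines as open diamonds. The MEF-2 lines fall along one descending band from line 7 (11.07 and 11.05) to line 3 (14.94 and 6.49), with the MEF-1 lines below it.

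Of the 72 relations, 15 use the MEF-2 values of Ccn3 or Ankrd1 and are descriptions. Of the other 57, 0 passed the threshold after adjustment, while 4 had an unadjusted p under 0.05 by r and 4 by rho (exact permutation). Positive values were found in MEF-1 for Ccn1 with Wwtr1 (r = 0.852, exact permutation p = 0.00794, adjusted p = 0.19). Ccn2 with Amotl2 was also positive there (r = 0.854, exact permutation p = 0.0119, adjusted p = 0.214). In MEF-2 Ccn1 with Wwtr1 had the opposite sign (r = −0.492, exact permutation p = 0.257). Ccn2 with Amotl2 had r = 0.279 in MEF-2 (exact permutation p = 0.565). Among the descriptions in MEF-2, Ccn3 had r = −0.865 with Amotl2, and Ankrd1 had r = 0.721 with Yap1, against −0.373 in MEF-1 (exact permutation p = 0.407). Ccn4 had r = −0.632 with Ccn3 and 0.734 with Ankrd1 in MEF-2, against −0.0894 and 0.565 in MEF-1.

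The genes with the most similar pattern were sought among 2300 genes with a range of at least 1 in the MEF-2 clonal lines, over 14 clonal lines centred on the mean of their set, and the correlations are descriptions over lines that share their origin. Nearest to Ccn3 were Ptn (r = 0.97), which encodes the secreted growth factor pleiotrophin, Gm10134 (0.96) and Gbgt1 (0.96), a glycosyltransferase gene. Ptn ran from 13.05 over a median of 14.90 to 16.43 in MEF-2 and from 15.13 over 15.76 to 16.52 in MEF-1. Nearest to Ankrd1 were Pmaip1 (0.98), which encodes the apoptosis regulator NOXA, Siglecg (0.96), a gene of a sialic acid-binding lectin, and Ets1 (0.96), a transcription factor gene. Pmaip1 ran from 8.43 over 9.73 to 11.19 in MEF-2 and from 7.23 over 7.65 to 8.68 in MEF-1. Ccn3 against Ankrd1 had r = −0.93 on the same measure.

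**Figure D4:**
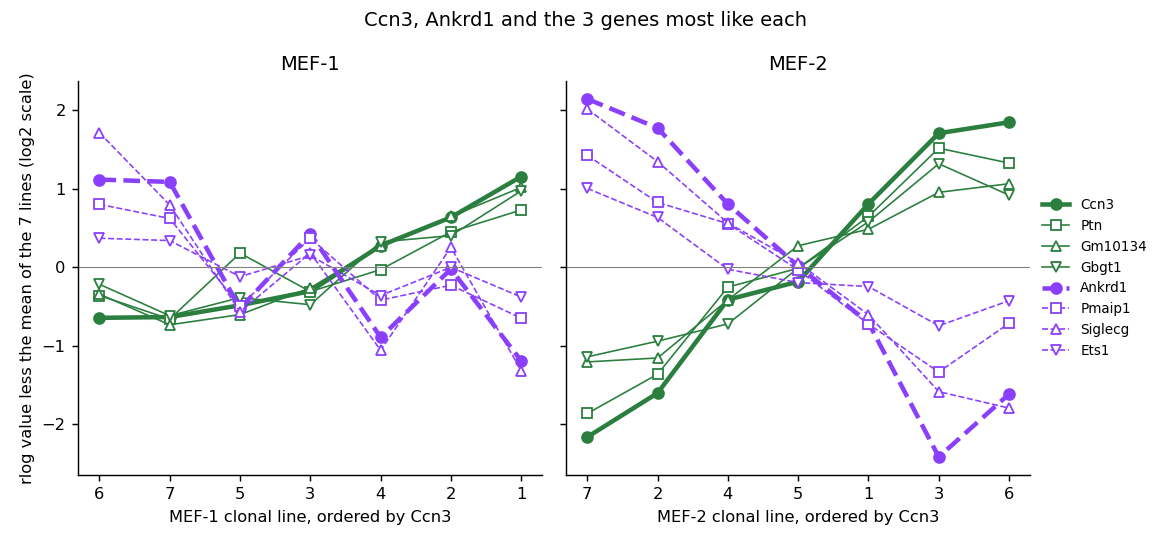
The rlog value less the mean of the 7 clonal lines (vertical axis, log2 scale) is plotted for Ccn3, Ankrd1 and the 3 genes most like each, with the lines of MEF-1 and MEF-2 ordered by Ccn3 along the horizontal axis. In MEF-2 the genes around Ccn3 climb from line 7 to lines 3 and 6 while those around Ankrd1 descend, and the pattern is smaller in MEF-1.

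The parental lines are mixed populations from which the clonal cells were taken, and they show where a population lies among its clones. Ccn4 stood at 14.32 (MEF-1) and 14.43 (MEF-2) in the parental lines, above all 7 clonal lines in both sets. Of all genes 4.85% stood above all clones in both sets and 6.73% below, and Ccn4 was the only member to do either. Ccn3 was at 11.44 in the MEF-1 parental line, below all 7 of its clones (12.47 to 14.27), and at 12.07 in the MEF-2 parental line, below 5 of its clones and above lines 2 and 7. The MEF-1 parental line was also below its clones for Yap1 (14.02) and above them for Ccn2 (17.51), and the MEF-2 parental line above its clones for Wwtr1 (14.35). Ankrd1 was at 8.55 and 9.21 in the parental lines, inside the range of the clones in both sets.

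With both sets in one fit, clonal minus parental was −0.79 for Ccn4 with a 95% interval from −1.28 to −0.30 (limma, adjusted p = 0.133), and −0.38 for Ccn2 (limma, adjusted p = 0.328). The remaining tested members lay between −0.27 for Ccn5 and 0.15 for Ccn1. None of the 7 tested members passed, as did only 31 of all 15285 genes (0.203%, of which 0.072% higher and 0.131% lower in clones, limma, with 2763 at an unadjusted p under 0.05), and with 1 parental library per set the fit rests on 2 parental values. The count over all genes ran from 15 without MEF-2 line 1 to 137 without MEF-2 line 7, with 47 without MEF-2 line 3 and 17 to 20 without MEF-1 line 3 or without MEF-2 line 2, 4, 5 or 6. For Ccn3 and Ankrd1 the differences were 1.42 and −0.52, given without a test.

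The genes around the members were taken from lists written from general knowledge with earlier results of these data known. Of 18 further YAP-TAZ target genes, 2 were higher and 9 lower in the MEF-2 clonal lines, 7 did not pass the test, and the median difference was −0.33 against −0.004 over all genes. With 56.1% of all genes called, the number of targets called in either direction is near the background. By direction, 9 of 18 were lower against 28.6% of all genes, and 2 of 18 were higher against 27.5%. This skew was not tested. F3, which encodes tissue factor, was 0.95 higher (limma, adjusted p = 0.00242) and Dock5, a regulator of Rac, 0.91 higher (limma, adjusted p = 3.38e-06). Igfbp3, an IGF-binding protein gene, had a difference of −2.20 (limma, adjusted p = 5.81e-05) at low values (4.24 ± 0.95 in MEF-1 and 2.03 ± 0.09 in MEF-2, SD, n = 7 each), and Foxf2, a mesenchymal transcription factor gene, of −2.15 (limma, adjusted p = 0.00031).

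Of 22 Hippo kinases and regulators, 4 were higher and 5 lower in MEF-2, a smaller share than the 56.1% of all genes called, with a median of 0.02. Stk4 and Stk3 encode the paired MST kinases at the head of the cascade, and they were shifted in opposite directions, 0.37 for Stk4 (limma, adjusted p = 0.00125) and −0.62 for Stk3 (limma, adjusted p = 1.15e-05). Map4k4, a kinase that acts beside them, was 0.36 higher, and Limd1, a LIM protein that binds LATS kinases, had a difference of −0.52. Lats1 (0.03, 95% interval −0.08 to 0.14) and Lats2 (−0.22, −0.47 to 0.03) did not pass, and Lats2 is counted among the targets as well.

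Of 8 TEAD and VGLL genes 6 were tested, 2 were higher and 1 lower (56.1% of all genes were called), with a median of 0.11. Tead2 was 0.76 higher in MEF-2 (limma, adjusted p = 4.24e-06) and its sets, 12.11 to 12.70 and 13.01 to 13.48, did not overlap. Tead1 was 0.32 higher (limma, adjusted p = 0.00849), while Tead4 (0.31, limma, adjusted p = 0.0804) and Tead3 (−0.11, limma, adjusted p = 0.408) did not pass. Vgll4, which encodes a protein that competes with YAP for TEAD, had a difference of −0.50 (limma, adjusted p = 0.000243).

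MRTF-SRF targets, genes of the actin cytoskeleton that respond to tension alongside YAP-TAZ, had 9 of 14 higher and 1 lower in MEF-2, against 27.5% and 28.6% of all genes, with a median of 0.57. Actg2 (4.84) and Cnn1 (3.52), both smooth-muscle contractile genes, had the largest shifts, and Fhl2 (−0.32) was the gene that fell. Cnn1, Acta2 and Tagln of this list are also among the 5 smooth-muscle markers. Of 19 immediate-early genes 0 were higher and 3 lower, well below the 56.1% of all genes called, with a median of −0.41. Among the 3 were the transcription factor gene Egr1 (−0.88, limma, adjusted p = 0.0457) and Zfp36 (−0.71, limma, adjusted p = 0.015), which encodes an mRNA decay factor. Of 10 receptor genes for CCN proteins 4 were higher and 2 lower, near the share of all genes called (56.1%), with a median of −0.11. The integrin genes Itgb3 (1.46) and Itga5 (0.77) were higher, and the integrin gene Itga6 (−1.57) and the syndecan gene Sdc4 (−0.24) were lower.

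**Figure D5:**
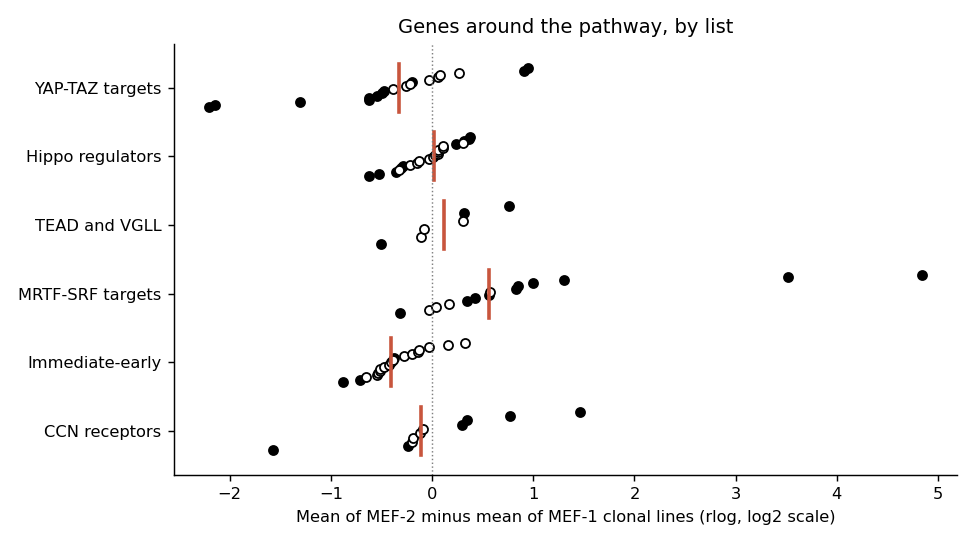
Each point is 1 gene of 6 lists, placed by the mean of MEF-2 minus the mean of MEF-1 clonal lines (horizontal axis, rlog, log2 scale), filled where the adjusted p was under 0.05, with the median of the list as a bar. MRTF-SRF targets lie mostly above 0 (median 0.57) and YAP-TAZ targets mostly below (median −0.33).

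The lines at the ends of the Ankrd1 range were then followed through the lists, a step chosen after the values had been seen. MEF-2 line 7, the highest for Ankrd1, was the highest MEF-2 line for 12 of 14 MRTF-SRF targets (85.7%), 10 of 18 YAP-TAZ targets (55.6%) and 5 of 6 TEAD and VGLL genes, against 24.6% of all genes. It was also the highest for 10 of 19 immediate-early genes (52.6%) and 5 of 10 CCN receptors, and for 6 of 22 Hippo regulators (27.3%). MEF-2 line 2, second for Ankrd1, was the highest for 1 of 14 MRTF-SRF targets and the lowest for 1. As line 7 held 12 of the highest places, the count for line 2 cannot show how high line 2 stood. MEF-2 line 3, the lowest for Ankrd1, was the lowest for 9 of 14 MRTF-SRF targets (64.3%, against 23% of all genes). MEF-2 line 6, the next lowest for Ankrd1, was the lowest for 2 of 14 (14.3%, against 16.2% of all genes). Its count was limited by the 9 places that line 3 held. In MEF-1, line 6 was the highest for Ankrd1 and Amotl2 and for 10 of 14 MRTF-SRF targets (71.4%, against 14.2% of all genes). MEF-1 line 7 had nearly the same Ankrd1 value, 8.91 against 8.94, and was the highest for 1 and the lowest for 5 of the 14 (35.7%), so that a high Ankrd1 value did not go with these targets in every line. MEF-1 line 2, the lowest for Ccn1, Ccn2 and Amotl2, was the lowest for 13 of 19 immediate-early genes (68.4%, against 20.5% of all genes). The genes of a list move together within a line, so that these counts describe single lines and are not tested.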

How the data were processed

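Total RNA of 16 MEF lines, depleted of ribosomal RNA, had been made into strand-marking libraries. The authors trimmed reads with Trim Galore 0.6.0, quantified them with Salmon 1.5.2 (genome build mm10) and deposited one log2 value per gene and line, the rlog of DESeq2 1.24.0, per the labels and methods. The way from transcripts to genes, and the blind setting of rlog, are not given in the sources used here. As the table holds no counts, depth is unknown, and no count test or pseudocount was used. Of 54453 identifiers, 54200 were matched to GENCODE mouse release 21 (Ensembl 96).

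Lines were grouped by their labels. Protein-coding genes with an average above 0 were fitted with limma 3.58.1 (R 4.3.3, trended prior) and Benjamini-Hochberg adjustment over 15285 genes, with calls at adjusted p under 0.05. One fit took 7 MEF-2 against 7 MEF-1 clonal lines, one took clonal against parental lines with the set as covariate, and one took absolute deviations from the set median. Clonal lines stand as replicates of a parental line, and p-values measure the spread between these lines. The limma fits and the permutation test of correlation were tested on simulated data, where the test of spread had little power. Correlations used exact permutations of 7 lines. Python 3.11.15 was used for the remainder.

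Members, lists and markers were chosen with earlier results of these data known. Named genes are the 9 members, Ccn6, the 2 genes with the largest called difference in each direction of every list, Tead1 to Tead4, Lats1, Lats2 and the 3 genes most like Ccn3 and Ankrd1. Alternatives were other filters, priors, gene classes and scalings, chromosome medians taken away, all lines in one fit, a replicate block, and leaving out each line. DNA methylation data were not analysed here.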

Additional observations from a re-analysis of the deposited data

Results flagged for a closer look

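In 78 sets of 7 clonal lines (39 named genes in MEF-1 and MEF-2), the highest or lowest line stood apart by Dixon's criterion in 2, where chance gives about 1 in 20, or 3.9. Ccn1 was at 16.19 in MEF-1 line 2, with the nearest line at 16.81, a gap of 0.592 of the whole range, and this line was also the lowest MEF-1 line for Ccn2 and Amotl2. Stk4 was at 11.87 in MEF-2 line 3, with the nearest line at 12.23, a gap of 0.69 of the range. The median of chromosome 2, which holds Stk4, was −0.25 in the same line. The part of that median in the value of Stk4 was not tested.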

How the results depend on the processing

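The calls on Ccn4, Ccn5 and Wwtr1 between the clonal sets held in all 9 alternative fits and all 14 fits without 1 line (limma, adjusted p from 4.88e-05 to 0.0186, 1.99e-07 to 5.2e-05 and 0.00131 to 0.0347). Over all genes, calls ran from 7760 to 10297 across the alternatives and from 8026 to 8673 without 1 line. Clone numbers do not pair the lines. The correlation of same-numbered lines ran from −0.13 to 0.20, 2 of 7 were above 0.1, and 1 line correlated best with its own number. With the clone number as a replicate block 8226 genes were called, and still 3 members. Of 594 member values under alternatives, 579 kept their direction and side of the threshold. The Ccn1 difference between sets became significant without MEF-1 line 2 (−0.33). A further 14 changed sign. For 3 this was the untested Ccn3 difference between the sets (0.12), which ran from −0.19 to 0.48 without 1 line. For 11 it was the spread between sets, which called no member, namely Wwtr1 at 0.009 with chromosome medians taken away, Ccn5 at 0.004 with quantile normalisation, and, without 1 line, Ccn1 (−0.127 to 0.006), Ccn5 (−0.096 to 0.039) and Wwtr1 (−0.016 to 0.008). The count of genes whose spread differed was 2, and 0, 1, 4 or 5 under the alternatives apart from 450 with deviations from the mean, and 0 to 5 without 1 line. Clonal against parental calls ran from 15 to 137 without 1 line, and pairs of members under the threshold from 0 to 3, a check added after the data were seen. The 3 arose without MEF-2 line 6 and all use the MEF-2 values for which Ccn3 and Ankrd1 were chosen, so that they are no test. The cause was not tested. The absence of counts leaves the precision of low values, such as those of Igfbp3, unknown.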
